A study of Rattus norvegicus with 20 samples.

Results

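Small islands are described here: autosomal runs of only 1 or 2 neighbouring probes on a CpG island array of the rat genome. A run was a chain of non-control probes on a chromosome of build rn4 in which each probe started at most 500 bases after the one before. Of 16465 runs on all chromosomes and unplaced sequence, 2667 were such small runs, 1127 with 1 probe and 1540 with 2 probes, and 13132 were autosomal runs of 3 or more probes, called larger runs. The small runs held 4207 of 89403 autosomal probes. No measured value entered this choice. In all, 2626 small runs had a value, and the other 41 (28 with 1 probe and 13 with 2) had no probe with input signal well above background on at least 10 of the 20 arrays.

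The samples were 16 mammary carcinomas and 4 normal mammary glands, each on an array of its own. All came from female rats, F1 offspring of a cross between Sprague-Dawley and Copenhagen. The carcinomas are labelled as induced by radiation. The labels list no treatment and whole-body 137Cs gamma rays, with a dose of 4 Gy delivered to rats aged 7 weeks (dose rate 0.5 Gy per minute), without saying which applied to the normal glands, so tumour and irradiation cannot be told apart in the comparison of the groups. The samples are numbered without naming animals, so p-values measure only the spread between samples. The label and the scanner file of carcinomas 7 and 8 carry different sample codes, and counts without them are given in the closing section. The arrays carry no gene names, so the tissue was not checked against marker genes.

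CpG islands are short stretches of DNA rich in CpG dinucleotides, many of them at gene promoters. Most of the CpGs outside islands are methylated in vertebrate cells, while most islands are free of methylation, and in tumours some islands become methylated. On these arrays DNA captured by a methyl-CpG-binding domain protein carried the dye Cy5, and uncaptured input DNA from that sample carried Cy3, so a high Cy5 to Cy3 ratio marks a place rich in methylated CpG. A level is the log2 of this ratio minus the median of its array, averaged over the probes of a run.

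Raw Cy5 signal had array medians from 63 to 128.5 units in carcinomas and from 62 to 96 in normal glands. The range between islands of low and high ratio was narrower in carcinomas: the most common level among the highest 15% of runs of 3 or more probes was 2.72 ± 0.49 (SD, n = 16) in carcinomas and 4.69 ± 0.83 (SD, n = 4) in normal glands. A linear position was also computed, with 0 at the most common level of all such runs on an array and 1 at this high level, on the unlogged ratio.

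The small runs were short and lay close to other runs. Their median span was 67 bases, against 582 bases in larger runs, and the median distance to the nearest other run was 734 bases, against 17323 bases. In 61.3% of small runs another run lay within 1 kb, compared with 16.3% of larger runs. A run of 3 or more probes lay within 1 kb of 824 small runs (30.9%). The nearest other run was itself small for 998 of the 2667.

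In level the small runs were mostly low, like the larger ones. The median small run stood at -0.05 ± 0.05 (SD, n = 16) in carcinomas and at -0.10 ± 0.04 (SD, n = 4) in normal glands. The median larger run stood at -0.14 ± 0.06 (SD, n = 16) in carcinomas and -0.15 ± 0.05 (SD, n = 4) in normal glands. On each of the 20 arrays the median was higher in small runs, by between 0.02 and 0.16 in carcinomas and by between 0.03 and 0.07 in normal glands. The upper end ran the other way on each of the 20 arrays. The level below which 90% of runs lay was 2.24 ± 0.46 for small runs and 2.47 ± 0.46 for larger runs in carcinomas (SD, n = 16), and 3.13 ± 0.56 for small runs and 3.92 ± 0.69 for larger runs in normal glands (SD, n = 4). The higher median of small runs did not hold with each run represented by its middle probe alone. The median larger run then stood at -0.02 and the median small run at -0.03 in carcinomas. In normal glands they stood at 0.10 and -0.09.

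Fewer small runs reached the upper part of the array range. In carcinomas 14.7% ± 3.25 of small runs and 16.9% ± 3.64 of larger runs had a linear position over 0.5 (SD, n = 16), and in normal glands 7.97% ± 0.957 of small runs and 10.8% ± 0.578 of larger runs (SD, n = 4). The share of small runs in carcinomas was lowest in carcinoma 3 at 8.72%, had a median of 14.2% and was highest in carcinoma 15 at 20.3%. It was 6.70%, 9.03%, 8.04% and 8.11% in normal glands 1 to 4. All carcinomas except carcinoma 3 lay above every normal gland. This share is in linear position, whose upper end lay at a level of 2.72 in carcinomas and 4.69 in normal glands. A higher share is thus not in itself a higher log2 ratio. The log2 level below which 90% of small runs lay was lower in carcinomas, 2.24 against 3.13. In each of the 16 carcinomas and each of the 4 normal glands the share was smaller among small than among larger runs.

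**Figure D1:**
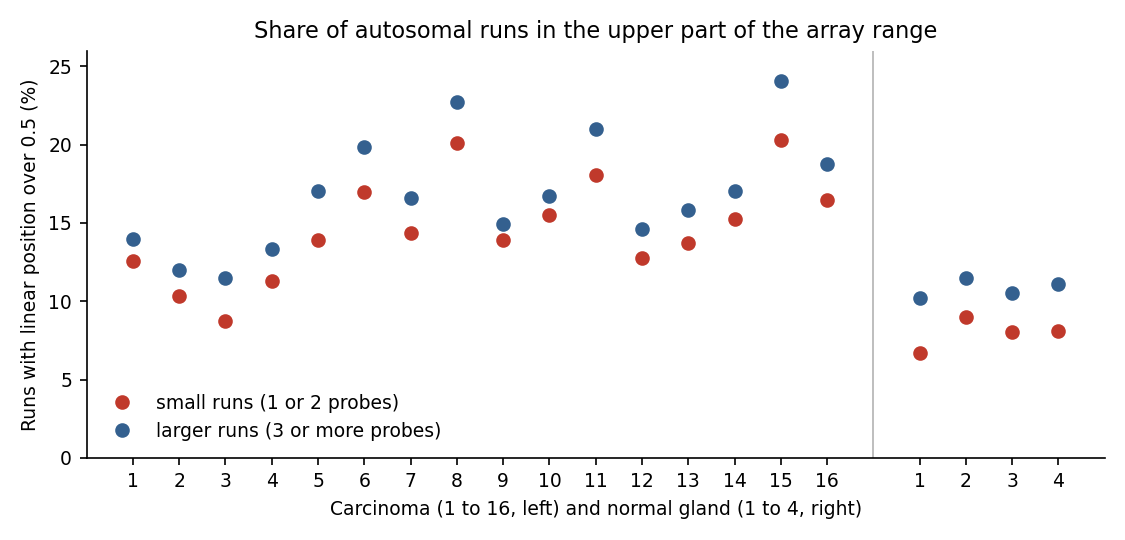
Share of autosomal runs with a linear position over 0.5 (percent), 1 pair of points per array, carcinomas 1 to 16 left and normal glands 1 to 4 right. On all 20 arrays the small runs lie below the larger runs, with carcinoma 15 highest and carcinoma 3 lowest of the carcinomas for both.

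Level bands were set by the mean linear position over all 20 arrays, 16 of them carcinomas, so the bands rest on the same arrays as the comparison of the groups. Under 0.2 lay 1976 of 2626 small runs (75.3%), between 0.2 and 0.8 lay 487 (18.5%), and over 0.8 lay 163 (6.21%). Of 13129 larger runs with a value, 74.1% were under 0.2, 16.7% in the middle band and 9.14% over 0.8. The band over 0.8 thus held a smaller share of small than of larger runs.

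Values just inside and just outside the size rule were close. Over 0.8 lay 7.19% of runs with 1 probe, 5.50% with 2 probes, 7.05% with 3 probes, 11.6% with 4 or 5 probes, 9.15% with 6 to 9 probes, 5.24% with 10 to 14 probes and 5.88% with 15 or more. The median level in runs of 2 probes was -0.06 ± 0.05 in carcinomas (SD, n = 16) and -0.09 ± 0.04 in normal glands (SD, n = 4). In runs of 3 probes it was -0.05 ± 0.05 and -0.08 ± 0.04 in the same groups. The band of highest levels was fullest among runs of 4 or 5 probes, and runs of 10 or more probes held shares under 6.21%, the value of all small runs.

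Small runs close to a larger run had lower levels than those farther away. The 946 small runs with a value that lay within 2 kb of a larger run stood at -0.19 ± 0.08 (SD, n = 16) in carcinomas and -0.29 ± 0.06 (SD, n = 4) in normal glands. The 1680 farther away stood at 0.04 ± 0.05 (SD, n = 16) in carcinomas and 0.01 ± 0.03 (SD, n = 4) in normal glands. Of the near ones 9.38% ± 3.41 were over position 0.5 in carcinomas (SD, n = 16) and 2.96% ± 0.432 in normal glands (SD, n = 4). Of the far ones 17.6% ± 3.23 were over it in carcinomas (SD, n = 16) and 10.8% ± 1.26 in normal glands (SD, n = 4). The near share was the lower one on 20 of 20 arrays.

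The small runs most often over 0.5 were those between 2 and 10 kb and over 100 kb from a larger run. In normal glands 13.2% ± 1.52 of the first and 13.5% ± 1.70 of the second were over 0.5, against 8.86% ± 0.998 at 10 to 100 kb (SD, n = 4). Single probes over 100 kb away reached 28.8% ± 4.77 in carcinomas (SD, n = 16) and 19.5% ± 2.31 in normal glands (SD, n = 4). Larger runs were also most often over 0.5 at 2 to 10 kb, at 24.4% ± 4.34 in carcinomas (SD, n = 16) and 16.4% ± 1.15 in normal glands (SD, n = 4). Of larger runs at 10 to 100 kb, 14.5% ± 2.22 were over it in carcinomas (SD, n = 16) and 10.8% ± 0.467 in normal glands (SD, n = 4). Over 100 kb they did not stand as high as the small runs: 15.3% ± 5.02 of larger runs over 100 kb from the next were over 0.5 in carcinomas (SD, n = 16) and 9.10% ± 0.395 in normal glands (SD, n = 4). Near another larger run, 17.7% ± 6.27 of larger runs were over it in carcinomas (SD, n = 16) and 6.54% ± 0.589 in normal glands (SD, n = 4), and the near small runs lay below them on 20 of 20 arrays. Beyond 2 kb the small runs lay below the larger ones on 6 of 20 arrays, so that at these distances neither kind was lower throughout. No test of these differences was run.

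**Figure D2:**
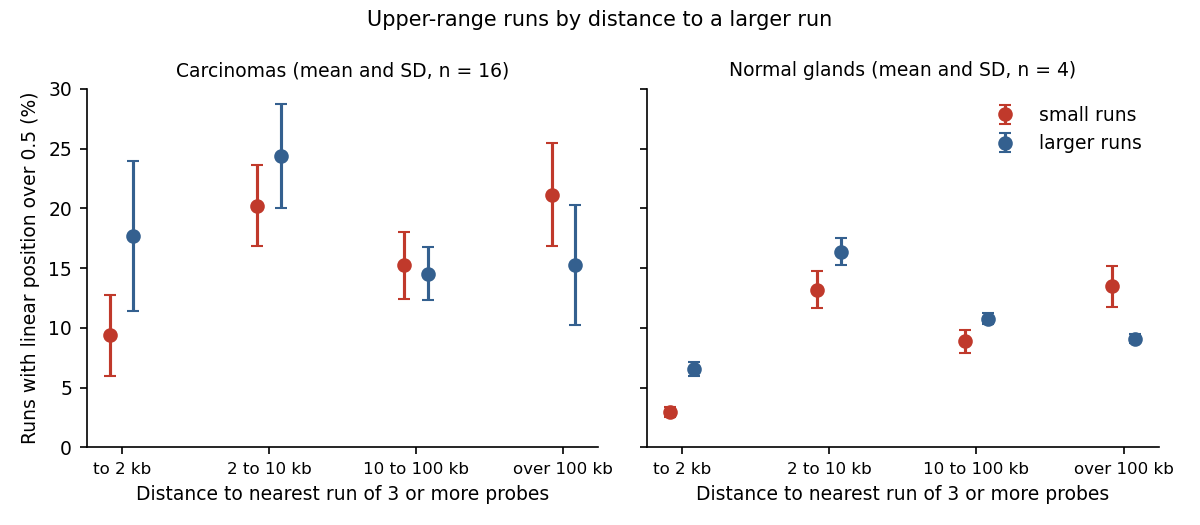
Share of runs with a linear position over 0.5 (percent) by distance to the nearest run of 3 or more probes, carcinomas left (n = 16) and normal glands right (n = 4), points at the mean over arrays and bars of 1 SD. Small runs within 2 kb of a larger run have the lowest shares, 9.38% and 2.96%.

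A small run beside a larger one mostly shared its band. In 84.4% of the 946 pairs both lay in the same band, and where the larger neighbour was under 0.2, 704 of 769 small runs were too (91.6%). Beside 145 neighbours of the middle band, 80 small runs were in the middle and 61 were low. Beside 32 neighbours over 0.8, 14 small runs were also over 0.8, 8 were in the middle and 10 were low. A small run was thus low beside a run over 0.8 in 10 of 32 cases, and over 0.8 beside a low one in 6 of 769. The level of the small run minus that of its neighbour had a median of -0.04 in carcinomas and -0.18 in normal glands. Between pairs of larger runs within 2 kb of each other, 75.9% shared a band. Under 0.2 lay 81.9% of the near small runs and 68.9% of the near larger runs. The part of these numbers of low runs in the shared bands was not tested. The rank correlation of levels in normal glands across pairs was 0.373 for small runs and 0.425 for larger runs, whose pairs share arrays and can share a neighbour.

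The probes of a 2-probe run were closest in level where they overlapped. Over 1484 such runs with both probes kept, the median distance between starts was 100 bases. The mean levels of the 2 probes differed by a median of 0.37 in carcinomas and 0.62 in normal glands, each level being a mean over 16 or 4 arrays. At up to 50 bases, where 300 of 322 pairs overlapped, it was 0.21 in carcinomas and 0.35 in normal glands. At 301 to 500 bases it was 0.54 in carcinomas and 0.82 in normal glands. Neighbouring probes of larger runs gave 0.18 and 0.51 in carcinomas, and 0.30 and 0.79 in normal glands, at these same distances. Where both probes of a 2-probe run changed by over 0.5 on the log2 scale between carcinomas and normal glands, 344 of 382 (90.1%) changed in the same direction, compared with 93.2% of such pairs in larger runs. Over all pairs, whatever the size of the change, 66.3% of the 1484 in 2-probe runs and 71.4% of those in larger runs changed in the same direction. Overlapping probes share sequence and are not separate measurements.

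**Figure D3:**
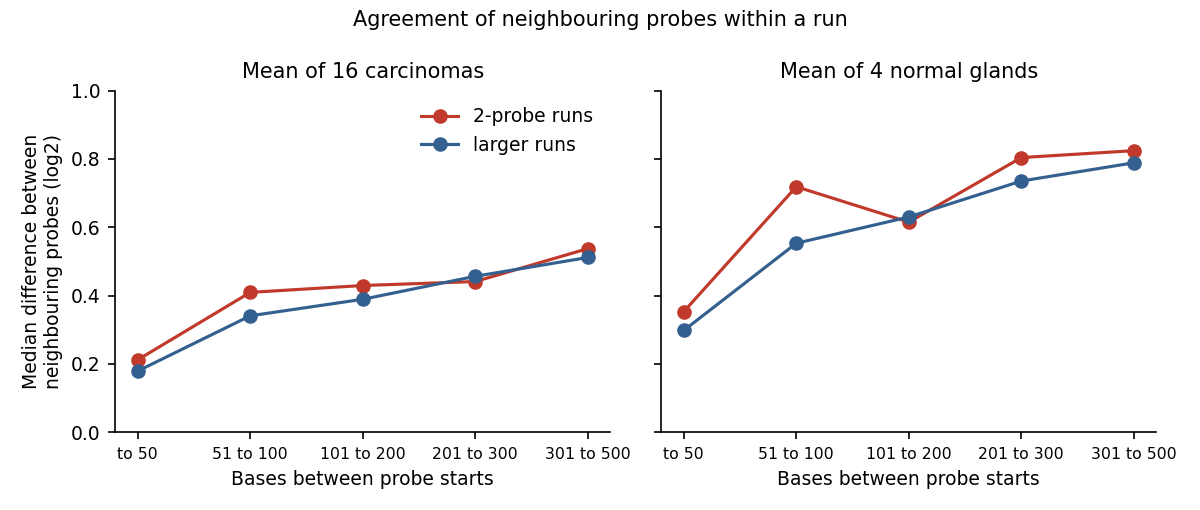
Median absolute difference in level (log2) between neighbouring probes of a run by the distance between their starts (bases), for mean levels over 16 carcinomas (left) and 4 normal glands (right). The difference is smallest at up to 50 bases in both kinds of run; in 2-probe runs of normal glands it does not increase at every step.

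With 1 or 2 probes to average, small runs varied more between arrays. The median SD of a small run was 0.44 over carcinomas and 0.38 over normal glands, against 0.31 and 0.25 for larger runs. For runs of 1 probe it was 0.48 over carcinomas and 0.43 over normal glands. The median standard error of the carcinoma minus normal difference was 0.24 in small and 0.17 in larger runs.

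The comparison of carcinomas with normal glands asked which small islands differed in methyl-CpG enrichment. With limma fitted over all 16416 runs that had a value and Benjamini-Hochberg adjustment, 302 small runs passed an adjusted p of 0.05 as higher in carcinomas and 544 as lower. That is 11.5% and 20.7% of the 2626 small runs, while over all runs 11.3% were called higher and 23.5% were called lower. All runs include those off the autosomes. Of larger runs, which are autosomal like the small ones, 11.7% were higher and 21.6% were lower. The small runs' shares were thus near the background in both directions. The median difference over small runs was 0.04, and over larger runs also 0.04, both smaller than the SD of the array medians over carcinomas (0.05 and 0.06), while the SD over normal glands was 0.04 for small runs; for small runs it was -0.02 after loess or quantile normalization and -0.03 with runs joined over gaps of up to 1000 bases.

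Which direction prevailed depended on the scale. In linear position 434 small runs were higher and 112 were lower, so that 20.5% of calls were lower in place of 64.3%; over all runs 17.1% were higher and 4.23% were lower on this scale. Loess normalization of the arrays gave 276 higher and 191 lower small runs (40.9% lower), and normexp background correction gave 107 higher and 405 lower (79.1% lower). Over all 16416 runs loess gave 1767 higher and 1132 lower, and normexp gave 627 and 3359. Of the calls among larger runs 38.6% were lower after loess and 82.9% after normexp. Both log2 ratio and linear position called 83 small runs higher and 26 lower, while 109 fell in log2 ratio but rose in linear position. Of 13129 larger runs 484 were higher and 225 lower in both, and 462 fell in log2 ratio but rose in linear position. Within scan day 2 the log2 ratio gave 111 higher and 342 lower small runs (4.23% and 13%), and within scan day 3 it gave 97 and 384 (3.69% and 14.6%). Of larger runs 4.23% were higher and 14.2% lower within day 2, and 2.12% and 15.5% within day 3. With scan day as a block there were 278 higher and 536 lower small runs (10.6% and 20.4%), against 10.5% and 20.9% of larger runs. No slide held both groups: the normal glands were on slides 5 and 10 and the carcinomas on other slides. Slide and group therefore cannot be told apart, and the scan-day block does not remove a difference between slides. Scan day 1 held carcinomas only. Leaving out normal gland 1 left 174 higher small runs (6.63%, against 6.61% of larger runs). Leaving out normal gland 3 left 198 (7.54%, against 7.21%).

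The calls followed the level of the small run. Of the 163 small runs over position 0.8, 157 were lower in log2 ratio and 0 were higher in the limma fit (96.3% lower), with a median difference of -1.92. At an unadjusted p under 0.05, 159 were lower and 0 were higher, and by linear position 17 were lower and 38 were higher. Of 1200 larger runs in this band 97.1% were lower, with a median difference of -1.95. Position 1 lay at a level of 2.72 in carcinomas and 4.69 in normal glands. A run near position 1 in both groups is therefore lower in log2 ratio by the way the band is set. The lower calls in this band are thus not a separate result. Of the 487 small runs between 0.2 and 0.8, 37 were higher and 151 were lower (31.0% lower, median difference -0.15). The 1976 small runs under 0.2 held 265 higher and 236 lower calls, 13.4% and 11.9%, against 13.1% and 11.2% of larger runs in the same band. In linear position 261 of the 487 middle small runs were higher and 1 was lower. Larger runs of the middle band had 12.2% higher and 26.6% lower calls by log2 ratio and a median difference of 0.04, opposite in sign to that of the small ones. No test of the difference between small and larger runs was run in any band.

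**Figure D4:**
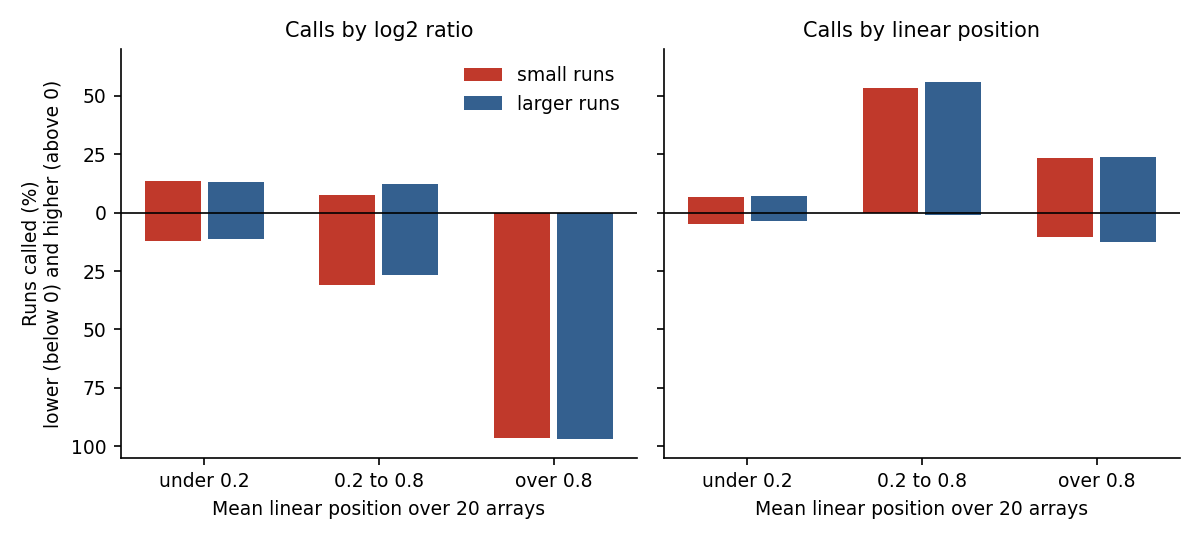
Share of runs called higher (above 0) or lower (below 0) in carcinomas at a limma adjusted p under 0.05 (percent), by mean linear position over 20 arrays, for small and larger runs; log2 ratio left, linear position right. In the top band 96.3% of small and 97.1% of larger runs are lower in log2 ratio. Position 1 lies at a level of 2.72 in carcinomas and 4.69 in normal glands, so this direction follows from how the band is set.

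Because larger runs average more probes, each run was also represented by its middle probe alone. Then 284 small runs were higher and 545 lower (10.8% and 20.8%), while 870 larger runs were higher and 3476 were lower (6.63% and 26.5%). Over all runs 7.1% were higher and 27.5% lower on this measure. With 1 probe each, the larger runs thus had fewer higher and more lower calls than the small ones, and their middle probes stood at 0.10 in normal glands, above the median small run. Full separation of the groups was less common in small runs. Every carcinoma lay below every normal gland in 294 (11.2%), against 13.7% of larger runs and 15.2% of all runs, which include those off the autosomes. Every carcinoma lay above in 34 (1.29%), against 1.78% of larger runs and 1.66% of all runs. By size, every carcinoma lay below in 13.2% of runs with 1 probe, 9.76% with 2 and 12.1% with 3. The share was 16.1% with 4 or 5 probes, 13.8% with 6 to 9, 8.85% with 10 to 14 and 12% with 15 or more.

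Distance to a larger run went with the share of lower calls. Within 2 kb, 120 small runs were higher and 144 were lower (12.7% and 15.2%). Beyond 2 kb, 182 were higher and 400 were lower (10.8% and 23.8%), near the 11.3% and 23.5% of all runs. Larger runs also had fewer lower calls near another larger run, 17.9% within 2 kb and 22.3% beyond. Small runs over 0.8 made up 2.54% of the near and 8.27% of the far ones, so the share of high levels moved with the share of lower calls, and its part in the result was not tested. Of 152 near small runs whose larger neighbour was called lower, 52 were called lower too and 14 were called higher. Of 116 whose neighbour was called higher, 24 were called higher too and 15 were called lower.

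Single regions were named among small runs past the threshold with input above background on at least 10 arrays and Cy5 above background on at least 2 normal and 8 carcinoma arrays. The 4 largest rises and falls of each size were taken from 180 higher and 516 lower runs that met this. Coordinates are those of rn4, and no gene annotation of that build was used here.

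The largest rise of a 2-probe run was on chromosome 3 from 159446021 to 159446129. It ranged from 0.39 through a median of 1.48 to 2.26 in carcinomas, and stood at -0.72, 0.46, 0.01 and -0.61 in normal glands 1 to 4. Of the 16 carcinomas, 15 lay above every normal gland. The difference was 1.73 (SE 0.26, limma adjusted p = 2.28e-05), with 1.64 and 1.82 at its 2 probes, 64 bases apart, and it passed under each of the 41 alternatives that gave it a value. A larger run of 4 probes began 611 bases beyond it and stood at 1.44 in carcinomas and 1.25 in normal glands, a difference of 0.19 (limma adjusted p = 0.531). The small run thus differed between the groups, while its neighbour had a like level in both.

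The 2-probe run on chromosome 15 from 50932381 to 50932597 ranged from -0.03 through 1.06 to 2.68 in carcinomas and stood at -0.54, -0.15, -0.24 and -0.35 in normal glands 1 to 4. All 16 carcinomas lay above every normal gland, with a difference of 1.53 (SE 0.36, limma adjusted p = 0.00188). It did not pass within scan day 2 (limma adjusted p = 0.0529), within scan day 3 (limma adjusted p = 0.0737) or with the replicate block (limma adjusted p = 0.0858). Its nearest larger run, 13626 bases away, differed by 0.38. The same difference of 1.53 was found for the run on chromosome 10 from 54172521 to 54172579, whose 2 probes start 5 bases apart and so share most of their sequence. The run on chromosome 12 from 12358876 to 12359284 rose by 1.30 (limma adjusted p = 0.00224), with 1.68 and 0.91 at its probes and 15 of 16 carcinomas above every normal gland. After normexp the runs on chromosomes 10 and 12 no longer passed (limma adjusted p = 0.0577 and 0.0574), nor did they within scan day 2 (limma adjusted p = 0.0992 and 0.0701). The run on chromosome 12 also did not pass in linear position (limma adjusted p = 0.0536) or with the replicate block (limma adjusted p = 0.127).

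The single probe on chromosome 5 from 63708703 to 63708750 ranged from 0.14 through 0.98 to 1.52 in carcinomas and stood at -1.70, -0.32, -0.69 and -0.65 in normal glands 1 to 4. All 16 carcinomas lay above every normal gland. The difference was 1.78 (SE 0.22, limma adjusted p = 1.22e-05), and it passed under each of the 41 alternatives that gave a value. The probe on chromosome 8 from 76854218 to 76854262 ranged from -0.59 through 0.25 to 0.97 in carcinomas and stood at -2.30, -1.09, -1.84 and -1.50 in normal glands 1 to 4. It differed by 1.92 (SE 0.25, limma adjusted p = 1.47e-05), with all carcinomas above, and Cy5 was well above background on 2 of 4 normal arrays. In linear position it stood at 0.0964 in carcinomas and -0.0164 in normal glands, so its rise stayed within the low part of the range (limma adjusted p = 0.0517).

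The probe on chromosome 16 from 19447516 to 19447560 reached the upper part. It ranged from 0.10 through 1.79 to 3.04 in carcinomas and stood at 0.10, 0.64, -0.86 and -0.74 in normal glands 1 to 4. Its difference was 1.99 (SE 0.41, limma adjusted p = 0.000525), 14 of 16 carcinomas lay above every normal gland, and 8 carcinomas were over position 0.5. The larger run 990 bases away rose by 0.90 (limma adjusted p = 0.00706). After normexp the probe's difference was 0.60 (limma adjusted p = 0.0611), and within scan day 2 it did not pass (limma adjusted p = 0.0593). The largest single-probe difference, 2.05 on chromosome 13 from 70212786 to 70212841 (limma adjusted p = 0.00589), came with normal gland 4 at -3.01. Without that gland the difference was 1.33 and its limma adjusted p was 0.0655, and with all glands 12 of 16 carcinomas lay above every normal gland. It also did not pass after loess (limma adjusted p = 0.0538), after normexp (limma adjusted p = 0.134), within scan day 2 or 3 (limma adjusted p = 0.0737 and 0.07) or with the replicate block (limma adjusted p = 0.112). Cy5 was well above background there on 2 of 4 normal arrays, so its normal level is partly a bound. At the named rises on chromosomes 3, 5, 10, 12 and 16 Cy5 was well above background on 3 of 4 normal arrays.

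The largest fall of a 2-probe run was on chromosome 2 from 31423747 to 31423916. It ranged from -1.08 through -0.20 to 1.50 in carcinomas and stood at 3.92, 2.55, 3.20 and 3.31 in normal glands 1 to 4. All 16 carcinomas lay below every normal gland. The difference was -3.31 (SE 0.35, limma adjusted p = 1.46e-06), with -3.38 and -3.24 at its probes, 125 bases apart. In linear position it stood at 0.0744 in carcinomas and 0.357 in normal glands (limma adjusted p = 0.00585). The nearest larger run, 30044 bases away, stood at -0.29 in carcinomas and -0.32 in normal glands and did not pass the test (limma adjusted p = 0.876). After loess the fall was -0.76 (limma adjusted p = 0.0939).

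Chromosome 7 held a pair of named falls within 1 kb of each other. The 2-probe run from 127841391 to 127841488 ranged from -0.58 through 0.52 to 1.97 in carcinomas and stood at 4.87, 2.95, 3.21 and 4.08 in normal glands 1 to 4, a difference of -3.08 (SE 0.39, limma adjusted p = 1.38e-05). The single probe from 127840741 to 127840785 ranged from -0.08 through 0.41 to 1.18 in carcinomas and stood at 3.73, 2.39, 2.59 and 3.34 in normal glands, a difference of -2.58 (SE 0.21, limma adjusted p = 1.04e-07). At both, all 16 carcinomas lay below every normal gland. Both were also lower in linear position, at 0.176 in carcinomas and 0.539 in normal glands for the pair of probes (limma adjusted p = 0.00288) and at 0.118 and 0.307 for the single probe (limma adjusted p = 0.0138). After loess the first fell by 0.40 without passing (limma adjusted p = 0.223), and the second turned to 0.03 (limma adjusted p = 0.948).

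The single probe on chromosome 10 from 90758993 to 90759052 had a difference of -3.22 (SE 0.68, limma adjusted p = 0.000665). Carcinomas spread widely there, from -2.00 through 1.41 to 3.21, against 5.95, 3.06, 3.97 and 4.28 in normal glands 1 to 4, and 14 of 16 carcinomas lay below every normal gland. Its difference was -2.93 after loess (limma adjusted p = 0.00134), -1.69 after quantile normalization (limma adjusted p = 0.0478) and -1.44 after normexp, and it did not pass in linear position (limma adjusted p = 0.0732), and Cy5 was well above background in 8 of 16 carcinomas. The single probe on chromosome 19 from 16346286 to 16346330 differed by -2.97 (SE 0.39, limma adjusted p = 1.76e-05) and lay 503 bases from a larger run that differed by -1.30 (limma adjusted p = 2.18e-05). After loess its difference was -1.04 (limma adjusted p = 0.0298), after quantile normalization -1.86 (limma adjusted p = 0.00367) and after normexp -1.76, and in linear position it did not pass (limma adjusted p = 0.151).

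The other named falls had higher levels in both groups. On chromosome 1 from 264957183 to 264957347 the 2-probe run ranged from 2.45 through 3.85 to 4.72 in carcinomas and stood at 7.71, 5.51, 6.47 and 5.69 in normal glands 1 to 4. It had the second highest level of all small runs over the 20 arrays. Its difference of -2.73 (SE 0.40, limma adjusted p = 2.18e-05) turned to 0.68 after loess (limma adjusted p = 0.0867), and in carcinomas its linear position was still 2.00, against 3.26 in normal glands. The run on chromosome 7 from 11243980 to 11244463 differed by -2.70 beside a larger run with -2.36, and the probe on chromosome 10 from 90184891 to 90184935 by -2.85. After loess these were -0.39 (limma adjusted p = 0.182) and 0.18 (limma adjusted p = 0.796). After quantile normalization the probe on chromosome 10 did not pass either (-0.94, limma adjusted p = 0.107). The 2-probe runs on chromosomes 1 and 7 then both stood at -0.41 (limma adjusted p = 0.00878 and 0.0134). The 2-probe run on chromosome 7 had a probe with input well above background on only 14 of 20 arrays, and Cy5 in 13 of 16 carcinomas. The highest small run was a single probe on chromosome 8 from 11804453 to 11804501, at 3.67 ± 0.65 in carcinomas (SD, n = 16) and 6.21 ± 0.90 in normal glands (SD, n = 4). The lowest were single probes on chromosome 7, from 10825105 to 10825149 and from 28110666 to 28110712, at -2.01 ± 0.52 and -1.63 ± 0.78 in carcinomas (SD, n = 16) and at -2.13 ± 0.36 and -2.21 ± 0.56 in normal glands (SD, n = 4). At the second of these Cy5 was not well above background on any normal array, so its normal level is only a bound.

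**Figure D5:**
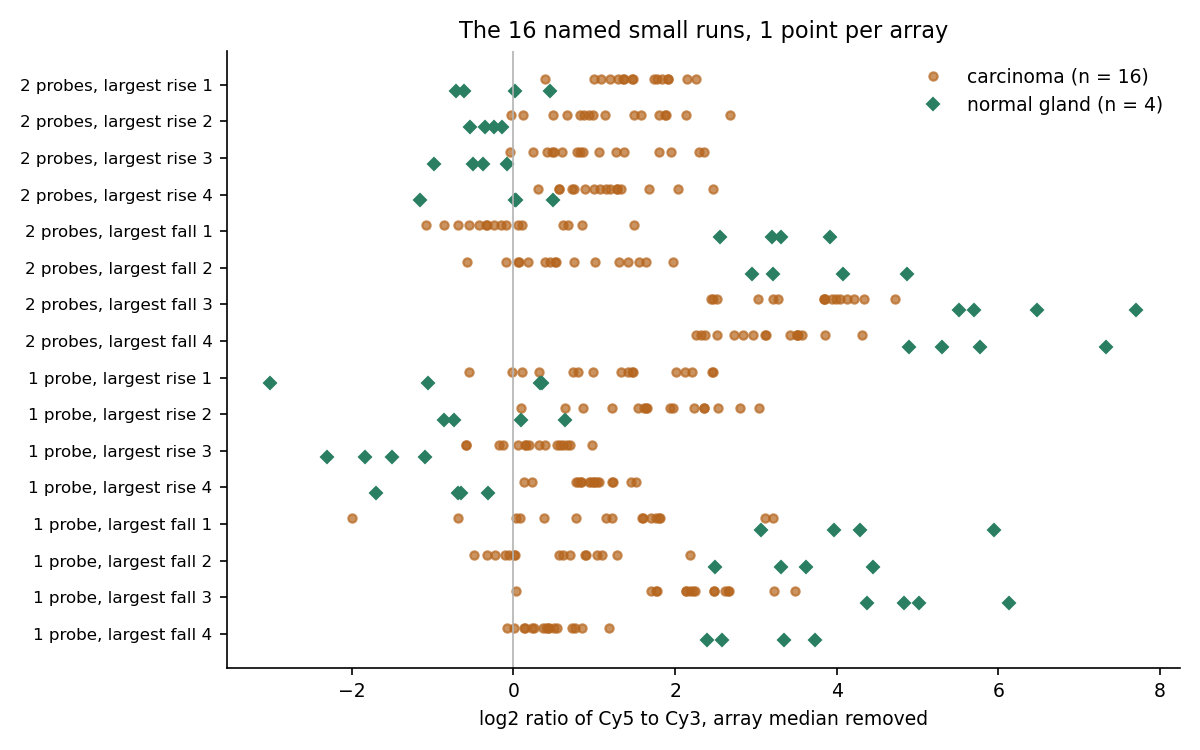
Level (log2 ratio, array median removed) of the 16 named small runs on each array, carcinomas as circles above and normal glands as diamonds below, ranked by the size of the change within each set. Carcinomas lie to the right of the normal glands in the rises and to the left in the falls, with overlap where the text gives under 16 carcinomas outside the normal range.

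Gains in single carcinomas were counted among the 2214 small runs under position 0.2 in every normal gland. The share of them over 0.5 was lowest at 0.316% in carcinoma 3, had a median of 2.62% and was highest at 9.35% in carcinoma 15. For 10954 larger runs chosen alike it was lowest at 0.119% in carcinoma 2, had a median of 2.76% and was highest at 11.0% in carcinoma 15. Of the 2214, 351 (15.9%) passed 0.5 in at least 1 carcinoma, 119 of them in 1 carcinoma, and 39 (1.76%) in 8 or more. Among larger runs 15.9% passed it in at least 1 and 2.32% in 8 or more. These gains are in linear position, whose upper end lay at a level of 2.72 in carcinomas and 4.69 in normal glands. In log2 ratio the 39 small runs differed by between -0.12 and 2.40, and most of them did not pass the limma test. A gain in position was thus not always a rise in log2 ratio. Carcinomas 15 and 8 had the highest shares for both kinds of run. The share was smaller for small than for larger runs in 13 of 16 carcinomas.

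The small runs gained in the most carcinomas, 13 of 16, were chosen after their values had been seen. They lay on chromosome 19 from 29217272 to 29217614, and as single probes on chromosome 5 from 59119113 to 59119157 and from 169344917 to 169344961. Their mean linear positions were 0.725, 0.743 and 0.742 in carcinomas and 0.0751, 0.100 and 0.129 in normal glands. In log2 ratio the differences were 0.91, 0.71 and 0.25, and the second and the third did not pass the test (limma adjusted p = 0.0252, 0.107 and 0.706). Of 164 small runs over 0.5 in every normal gland, 8 (4.88%) were under 0.2 in at least 1 carcinoma and 0 in 8 or more. Of 1267 such larger runs, 45 (3.55%) were under 0.2 in at least 1 carcinoma and 3 in 8 or more.

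Input signal differed little between the kinds of run. The mean log2 Cy3 signal had a median of 10.2 over probes of 1-probe runs, 10.3 over those of 2-probe runs and 10.4 over those of larger runs. Cy5 was well above background for 82.1%, 84.4% and 86.1% of these 3 kinds of probe in carcinomas and for 76.8%, 79.4% and 80.8% in normal glands. Dimmer signal thus went with fewer probes, and its part in the levels was not tested. Among the 302 higher small runs, 76 had a probe with Cy5 not well above background on any normal array, so for these the normal level is only a bound.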

How the data were processed

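The 20 scanner files came from Agilent Feature Extraction 10.7.3.1 with rn4 coordinates, per the file headers. Per the file headers, the deposited intensities (processed signals) had background removed and 1 linear dye factor applied to each channel, and the scanner log ratio is a log10 value. The deposited value table holds log2 ratios of 91897 of 93024 probes, equal to the scanner log ratio to within 7.94e-07 after rescaling, with column medians from -0.48 to -0.08. Per the labels, Cy5 is the captured DNA and Cy3 the input on every array.

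For each probe the log2 ratio of processed Cy5 to Cy3 was computed here and the median of its array subtracted. The scanner's 187 outlier values were dropped, and probes were used only if input stood clear of background on 10 or more arrays (91599 probes). Runs were averaged over kept probes and tested with limma 3.58.1 in R 4.3.3 over all runs, with Benjamini-Hochberg adjustment. In simulated data, small runs changed by 0.5, 1, 1.5 and 2 on the log2 scale were recovered in 10%, 56%, 84% and 94% of cases, with 8 of 16215 unchanged runs called. The simulation drew independent noise for each run, without a difference in range between arrays, and changed only 50 runs at each size. In the data the range differed between the groups and many more runs were called. These rates therefore do not carry over to the comparison of the groups. The named regions were the 4 largest rises and falls of each size under the limits given in the text, and the 2 highest and 2 lowest small runs. The members, the rules and the linear position were chosen with earlier results of these data known. The number of arrays limits precision, above all the 4 normal glands. Summaries used Python 3.11.15 with numpy 2.4.6 and pandas 2.3.3.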

Additional observations from a re-analysis of the deposited data

How the results depend on the processing

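The count of 302 higher small runs became 107 after normexp, 114 with a gap of 1000 bases, 695 with 300 bases, 459 with array weights, 111 and 97 within scan days 2 and 3, and 137 at an adjusted p under 0.01. The 544 lower ones became 191 after loess, 287 after quantile normalization, 112 in linear position, 304 and 1175 with gaps of 1000 and 300 bases, and 342 within scan day 2. The gap settings change which runs are small (1133 and 6430 with a value). Leaving out 1 array gave 174 to 375 higher and 461 to 568 lower, and leaving out carcinomas 7 and 8 gave 367 and 569. Higher calls were 4.07% of small and 3.91% of larger runs after normexp, and 17.5% and 18.6% with array weights. Lower calls were 7.27% of small and 6.7% of larger runs after loess, and 10.9% and 12.8% after quantile normalization. With gaps of 1000 bases 26.8% of small and 21.8% of larger runs were lower. For settings other than the gaps the cause was not tested. The median difference over small runs turned to -0.0192 after loess, -0.0225 after quantile and -0.0330 with 1000 bases, and over larger runs to -0.0401 after quantile and -0.104 with 1 middle probe. Median levels of small runs in normal glands moved to -0.0244 after loess, -0.0202 after normexp and 0.131 with 1000 bases, and in carcinomas to 0.133 with 1000 bases. Those of larger runs in normal glands moved to -0.0679 after loess, -0.0915 after quantile, -0.0651 after normexp and 0.0983 with 1 middle probe, and in carcinomas to -0.0728 after normexp and -0.0207 with 1 middle probe. Without centring, the deposited table gave -0.307 and -0.348 for small and -0.403 and -0.407 for larger runs in carcinomas and normal glands. The reversed regions were 3 falls after loess, with 0.678, 0.179 and 0.0302; the cause was not tested.

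The labels do not say whether the replicate numbers 1 to 4 pair the samples. Deviations of same-numbered samples from their group means correlated at 0.285, -0.244, 0.0788 and -0.0338. So few pairs cannot show whether same-numbered samples came from the same animal. With the replicate block there were 286 higher and 443 lower small runs (10.9% and 16.9%), against 7.27% and 17.2% of larger runs. In that setting 3 of the 16 named regions lost their call. No array among the 4 normal glands stood apart in the 22 sets of values searched.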

Other observations

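The share of small runs among all runs differed between chromosomes, from 13.3% on chromosome 19 to 20.3% on chromosome 14. Chromosome 18 had the highest small runs: its 82 small runs with a value had a median level of 0.54 in carcinomas and 0.36 in normal glands. Of these, 17.1% lay over position 0.8, and 6 were higher (7.32%) and 29 lower (35.4%) in carcinomas. Over all small runs 11.5% were higher and 20.7% were lower. Over all runs, with those off the autosomes, 11.3% were higher and 23.5% were lower. Of the larger runs on chromosome 18, 12.8% lay over 0.8 and 22.2% were lower in carcinomas. On chromosome 20 the order was the other way, with 5.41% of small and 17.2% of larger runs over 0.8. These chromosomes were picked after their values had been seen.

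Within larger runs, end probes and inner probes differed in the same measures. End probes stood at -0.01 ± 0.08 in carcinomas (SD, n = 16) and -0.21 ± 0.04 in normal glands (SD, n = 4), inner probes at -0.05 ± 0.03 in carcinomas and 0.02 ± 0.01 in normal glands. The mean log2 Cy3 signal had a median of 10.1 over end probes and 10.6 over inner probes. Single probes of small runs stood at -0.12 ± 0.05 in normal glands (SD, n = 4) with a Cy3 median of 10.3 after the filter, between both kinds. The part of input signal in these levels was not tested.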
